A study of Mus musculus with 12 samples.

Results

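Pericentral hepatocyte Wnt targets are genes that liver cells around the central vein transcribe when Wnt signalling is active, and 8 of them were followed here in whole-liver RNA. The 8 genes, Glul, Axin2, Lgr5, Oat, Rhbg, Slc1a2, Tbx3 and Rgn, were taken by matching their symbols, and all 8 were found among 16239 named genes. In the files their gene numbers are 14645 for Glul, 12006 for Axin2, 14160 for Lgr5, 18242 for Oat, 58176 for Rhbg, 20511 for Slc1a2, 21386 for Tbx3 and 19733 for Rgn. They are picked by symbol, and the set was drawn up with earlier results of these data known.

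The 12 RNA-seq libraries fall into 4 groups of 3 libraries, from mice of strain 129/B6 that were all 10 months old. The HF knockout group lacked thrombospondin 1 (TSP1, gene Thbs1) in macrophages and was kept on the HF diet for 8 months. The HF floxed group carried the floxed TSP1 gene, with a genotype label of WT, and had the same HF diet. The LF knockout and LF floxed groups were the same genotypes after 8 months on the LF diet. The labels do not name the Cre driver, and floxed mice are the controls for the knockout. The series title concerns TSP1 from macrophages in the fatty liver disease of obesity. Each library was made from a flash-frozen liver, so a hepatocyte gene is read together with all other liver cells. In such bulk RNA, fewer cells of a type and less RNA per cell cannot be told apart.

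Hepatocytes line a lobule from the portal tract, where blood enters, to the central vein, where it leaves. Endothelial cells of the central vein secrete Wnt ligands and R-spondin 3, which keep beta-catenin active in the hepatocytes next to them. R-spondins act through receptors of the Lgr family, which hold back the ubiquitin ligases Znrf3 and Rnf43 and so keep Wnt receptors on the membrane. With TCF and LEF factors, beta-catenin then turns on a programme of ammonia capture, glutamine synthesis and drug metabolism. Among the 8 genes, Axin2 encodes a scaffold of the destruction complex and is a feedback inhibitor, and Lgr5 encodes an R-spondin receptor. Glul (glutamine synthetase), Oat (ornithine aminotransferase), Rhbg (an ammonium transporter) and Slc1a2 (a glutamate transporter) serve ammonia and glutamate handling. Tbx3 encodes a T-box transcription factor, and Rgn encodes regucalcin, a calcium-binding lactonase of the ascorbate pathway.

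Because Wnt targets are turned on through TCF and LEF factors, the promoter sequences at hand were searched for the short core that these factors bind. The RefSeq promoter table (build GRCm38.p6, 250 bases before to 50 bases after the start of each gene) held 4 of the 8 genes, namely Glul, Slc1a2, Oat and Axin2. The motifs CTTTGAT and CTTTGAA were searched on both strands, as ATCAAAG and TTCAAAG on the other. At least 1 of them is present in 8.65% of 32851 promoters of this length, CTTTGAT in 3.73% and CTTTGAA in 5.14%. Of the 4 promoters only that of Slc1a2 held a match, 1 copy of ATCAAAG beginning 207 bases before the start, and Glul, Oat and Axin2 held none in this window. Below are the promoters of Slc1a2, the gene with the widest range of the 8 over the 12 libraries, and of Axin2, the general feedback target. The Slc1a2 sequence is chr2:102706188-102706487, plus strand, and the Axin2 sequence is chr11:108920099-108920398, plus strand, both in GRCm38.p6. Capitals mark the match.
Slc1a2: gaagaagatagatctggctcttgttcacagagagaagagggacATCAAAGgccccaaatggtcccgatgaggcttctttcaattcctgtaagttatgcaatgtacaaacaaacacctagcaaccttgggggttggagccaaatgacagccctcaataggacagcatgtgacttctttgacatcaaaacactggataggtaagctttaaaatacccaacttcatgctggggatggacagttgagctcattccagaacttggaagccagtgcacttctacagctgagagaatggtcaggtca
Axin2: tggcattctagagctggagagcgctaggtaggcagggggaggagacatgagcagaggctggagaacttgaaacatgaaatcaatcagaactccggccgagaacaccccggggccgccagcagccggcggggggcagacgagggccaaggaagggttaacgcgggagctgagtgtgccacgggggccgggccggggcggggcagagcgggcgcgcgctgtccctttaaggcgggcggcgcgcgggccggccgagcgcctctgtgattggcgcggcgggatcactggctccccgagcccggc
The promoters differ in base composition, with 45.7% G and C for Slc1a2 and 70.0% for Axin2. A match is a run of letters and not a measured binding site.

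Library depth was even, at 16131506 to 16536016 estimated counts. The tissue label was checked with albumin (Alb), at 20592.94 to 72054.23 FPKM over the 12 libraries, and with the hepatocyte factor Hnf4a, at 93.35 to 114.23 FPKM. FPKM are fragments per length of transcript, scaled to the depth of the library. Thbs1, the targeted gene, was at 0.16, 1.42 and 1.63 FPKM in HF knockout livers and 0.75, 0.75 and 0.31 FPKM in HF floxed livers. It was at 0.08, 0.55 and 0.55 FPKM in LF knockout livers and 0.11, 0.06 and 0.07 FPKM in LF floxed livers, and on neither diet was its group mean lower in knockout than in floxed livers. The knockout is labelled as macrophage specific, so whole-liver Thbs1 does not check it, and the groups are named by their labels. In LF knockout, replicates 2 and 3 were near-identical, as were replicates 1 and 2 of HF floxed. Their counts differed by 2.85 and 8.87 times the sampling variance, against 50.7 to 528 times for the other pairs of 1 group. HF knockout replicate 2 stood apart from the other 11 libraries, and each result that rests on it is given with and without it. The labels number the replicates without naming animals, so the p-values below measure the spread between these libraries, which may be technical.

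All 8 genes were detected in all 12 libraries, over a wide range of levels. On the FPKM scale, which is per transcript length, Rgn, Glul and Oat were the highest of the 8, with medians over the 11 libraries other than HF knockout replicate 2 of 491.00, 389.00 and 262.59 FPKM. Slc1a2 (19.27 FPKM), Tbx3 (7.18 FPKM) and Rhbg (6.07 FPKM) followed. Axin2 (1.99 FPKM) and Lgr5 (1.16 FPKM), the signalling components, were the lowest, with 101 to 191 and 53 to 138 estimated counts in those 11 libraries. Counting noise therefore weighs more on Axin2, Lgr5 and Rhbg (34 to 275 counts) than on Glul, which had 11487 to 24700 counts.

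Axin2, the feedback inhibitor, was at 1.99, 0.12 and 2.04 FPKM in HF knockout replicates 1, 2 and 3 and at 2.49, 2.53 and 1.55 FPKM in HF floxed. It was at 1.46, 1.76 and 1.99 FPKM in LF knockout and at 2.30, 2.73 and 1.74 FPKM in LF floxed. All groups overlapped, and 1 library, HF knockout replicate 2, lay far below the rest. Over the other 11 libraries Axin2 varied least of the 8 genes, with a coefficient of variation of 20.3%.

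Lgr5, the R-spondin receptor, was at 1.16, 0.15 and 1.81 FPKM in HF knockout and at 0.69, 0.96 and 1.47 FPKM in HF floxed. It was at 0.75, 1.70 and 1.75 FPKM in LF knockout and at 1.27, 0.69 and 0.69 FPKM in LF floxed. The lowest value was again that of HF knockout replicate 2, and the 4 groups overlapped.

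Glul, which makes glutamine from ammonia and glutamate in the last rows of hepatocytes before the vein, was at 445.57, 10.97 and 456.28 FPKM in HF knockout. It was at 376.52, 389.00 and 509.06 FPKM in HF floxed, at 314.99, 534.75 and 547.35 FPKM in LF knockout and at 350.73, 344.88 and 252.97 FPKM in LF floxed. The HF floxed values were all above the LF floxed values, and the other pairs of groups that share a diet or a genotype overlapped. Without HF knockout replicate 2 the coefficient of variation of Glul was 23.2%.

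Oat, which moves the amino group of ornithine, was at 262.59, 2.77 and 272.59 FPKM in HF knockout and at 97.11, 109.06 and 322.95 FPKM in HF floxed. It was at 199.71, 338.77 and 328.29 FPKM in LF knockout and at 116.01, 280.50 and 111.10 FPKM in LF floxed. Apart from HF knockout replicate 2, the libraries were at 97.11 to 116.01 FPKM or at 199.71 FPKM and above, and both levels occurred within each floxed group.

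Slc1a2, the glutamate transporter, was at 35.49, 0.11 and 19.27 FPKM in HF knockout and at 10.94, 9.15 and 30.74 FPKM in HF floxed. It was at 15.73, 27.06 and 27.09 FPKM in LF knockout and at 17.97, 20.87 and 13.05 FPKM in LF floxed. HF knockout held both the highest and the lowest of the 12 values.

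Rhbg, the ammonium transporter, was at 7.47, 0.97 and 6.40 FPKM in HF knockout and at 6.07, 4.50 and 8.97 FPKM in HF floxed. It was at 2.01, 6.97 and 6.57 FPKM in LF knockout and at 3.23, 3.50 and 1.12 FPKM in LF floxed. The LF floxed values were all below the HF floxed values. Rhbg had the largest spread of the 8 genes over the 11 libraries, an 8.01-fold range and a coefficient of variation of 47.7%.

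Tbx3, the transcription factor, was at 10.94, 0.48 and 8.24 FPKM in HF knockout and at 4.56, 4.78 and 6.35 FPKM in HF floxed. It was at 6.98, 8.10 and 9.51 FPKM in LF knockout and at 7.18, 7.11 and 8.81 FPKM in LF floxed. The HF floxed values were all below the LF floxed values, and below the other 2 HF knockout values.

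Rgn, the most abundant of the 8 genes, was at 542.07, 16.96 and 434.11 FPKM in HF knockout and at 345.87, 379.84 and 763.87 FPKM in HF floxed. It was at 491.00, 725.05 and 699.83 FPKM in LF knockout and at 417.03, 582.53 and 468.68 FPKM in LF floxed. Within HF floxed, replicate 3 was higher than the near-identical replicates 1 and 2, as it was for Oat, Slc1a2, Glul, Rhbg, Lgr5 and Tbx3. Axin2 was lower in that replicate.

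**Figure D1:**
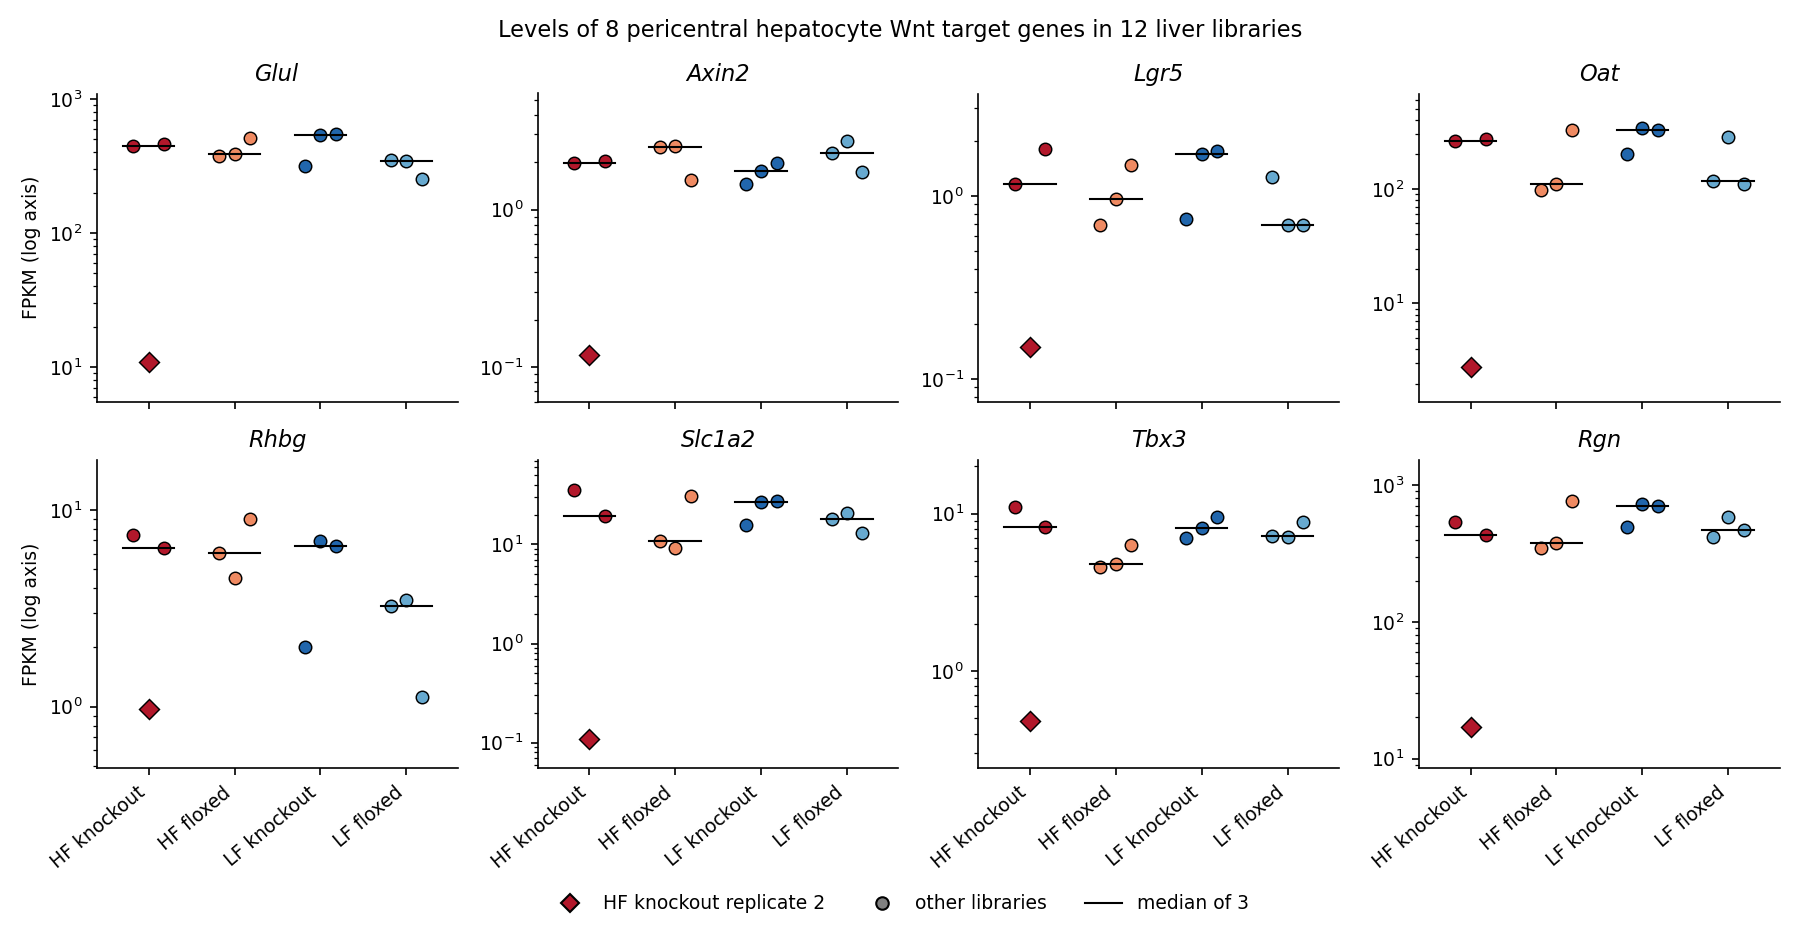
FPKM (log axis) of the 8 genes in each of 12 liver libraries, grouped as HF knockout, HF floxed, LF knockout and LF floxed from left to right, with a line at the median of each group of 3. The diamond, HF knockout replicate 2, is the lowest point in all 8 panels, for example 10.97 FPKM for Glul against 252.97 to 547.35 FPKM in the other 11 libraries.

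HF knockout replicate 2 was the lowest of the 12 libraries for all 8 genes, whereas no other library was the lowest for any of them. The same library was the lowest for 19.3% of the 12587 genes tested. It lay over 4-fold below the lowest of the other 11 libraries for 7 of the 8 genes, against 1.71% of all genes tested. Among 9771 genes with a median of at least 1 FPKM the shares were 23% and 1.76%. On TMM-scaled counts, which correct for library composition, the library was again the lowest for all 8 genes (24.1% of all genes tested) and over 4-fold below the others for 7 (1.84%). The summed FPKM of the 8 genes was 32.5 in this library and 844 to 1645 in the other 11.

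The 8 genes fell short by very different factors. Slc1a2, at 9 estimated counts (95% exact Poisson interval 4.12 to 17.1, counting error only), was 83.2-fold below the lowest of the other 11 libraries and 175-fold below their median. Oat, at 94 counts, was 35.1-fold below the lowest and 94.8-fold below the median. Slc1a2 and Oat were the furthest below of the 8 genes.

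Glul, at 491 counts (interval 449 to 536), was 23.1-fold below the lowest of the other libraries and 35.5-fold below their median. Rgn was 20.4-fold and Tbx3 9.50-fold below the lowest. Glul and Rgn (416 counts) remained well above the counting error at this depth.

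Axin2, at 8 counts (interval 3.45 to 15.8), was 12.2-fold below the lowest of the others. Lgr5, at 11 counts (interval 5.49 to 19.7), was 4.60-fold below the lowest. Rhbg was the exception among the 8, at 0.97 FPKM against 1.12 FPKM in LF floxed replicate 3, the next lowest, and 6.26-fold below the median of the 11. On the TMM-scaled count scale the factors below the lowest other library ran between 1.34 for Rhbg and 95.2 for Slc1a2.

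Genes of the pericentral zone that were not among the 8 were low in the same library. Of 22 such genes, 20 were at their lowest there and 9 were over 4-fold below the other 11 libraries, with a median difference of -2.43 on the log2(FPKM + 0.1) scale against -4.25 for the 8 genes and 0.06 for all genes tested. Cyp2e1, the ethanol-inducible cytochrome P450, was at 27.51 FPKM against 1677.24 to 4867.50 FPKM in the other 11. Cyp1a2, which metabolises caffeine, was at 0.20 FPKM against 70.16 to 314.95 FPKM.

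Periportal genes, from the other end of the lobule, were low as well but less uniformly. Of 20, the library held the lowest value for 14 and was over 4-fold below the others for 5, with a median difference of -1.42. Cyp2f2, a periportal cytochrome P450, was at 11.50 FPKM against 400.26 to 720.64 FPKM. Ass1, a urea cycle enzyme, was at 489.49 FPKM against 1336.19 to 1955.02 FPKM. Cdh1, the epithelial cadherin, went the other way, at 79.83 FPKM against 2.62 to 14.08 FPKM. Hsd17b13, Sdsl and Gldc also had positive differences, of 0.89, 0.46 and 0.32, and Gldc was at its highest of the 12 libraries. On TMM-scaled counts 13 of the 20 were at their lowest, 4 were over 4-fold below the others, and Cdh1 alone was at its highest.

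Hepatocyte markers of all zones were for the most part not low in HF knockout replicate 2. Of the 9 tested, 6 were at their highest of the 12 libraries there, against 2758 of the 12587 genes tested. Alb was among the 6, at 72054.23 FPKM, and the median difference over the 9 was 0.87. Ttr and Apoh were instead at their lowest there, with differences of -0.87 and -0.43. On TMM-scaled counts 5 were at their highest and Ttr alone at its lowest. Hnf4a was at 111.63 FPKM, within the range of the other 11. Kupffer cell markers (8 genes) had a median difference of -0.48 and sinusoidal endothelial markers (8 genes) of 0.56. The summed cholangiocyte markers were at 765 FPKM in this library, against 28.5 to 117 FPKM in the other 11, mostly through Spp1. Afp and Gpc3, fetal liver genes chosen after their values were seen, were at 29.98 and 101.49 FPKM, against at most 0.61 and 0.89 FPKM in the other 11. The part of any of these in the low levels of the 8 genes was not tested.

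Other parts of the Wnt pathway did not share the pattern as a whole. Among 9 tested ligands, 5 were at their lowest in HF knockout replicate 2, Wnt2 (0.09 FPKM, 3 counts) and Rspo3 (0.50 FPKM, 19 counts) among them. Wnt5a and Wnt9a were at their highest there. Wnt2 and Rspo3 are central vein signals, and the 7 central vein endothelial markers summed to 2.86 FPKM there and to 2.96 to 9.32 FPKM in the other 11. In the other 11 libraries Wnt2 was at 0.38 to 1.55 FPKM and Rspo3 at 0.51 to 2.61 FPKM. HF knockout replicate 1 had the next lowest sum (2.96 FPKM) and the next lowest Rspo3 (0.51 FPKM), while its 8 genes summed to 1307 FPKM. The part of these signals in the low levels of the 8 genes was not tested.

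None of the 9 tested Wnt and R-spondin receptors was at its lowest in HF knockout replicate 2, and 4 were at their highest, Lgr4, Fzd5, Fzd6 and Lrp5. Of all 12587 genes tested, 2423 were at their lowest and 2758 at their highest there. Lgr4, the receptor most like Lgr5 in function, was at 8.67 FPKM against at most 8.27 FPKM in the other 11. Ctnnb1, which encodes beta-catenin itself and was chosen after its values were seen, was at 78.46 FPKM against 27.26 to 58.35 FPKM.

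Wnt targets known from many tissues were split. Notum, a secreted Wnt inhibitor, was at 0.98 FPKM against 6.57 to 17.47 FPKM, and Sp5, a transcription factor chosen after its values were seen, at 0.03 FPKM against 1.02 to 3.11 FPKM. Tcf7 and Ccnd1 were at their highest of the 12 libraries on both scales, Ccnd1 (cyclin D1) at 31.38 FPKM against 4.06 to 20.27 FPKM. Of the 10 tested genes of this list, 4 were at their lowest and 3 at their highest on the FPKM scale, against 2423 and 2758 of all 12587. Znrf3 turned with the scale, at 1.71 FPKM against 0.83 to 1.37 FPKM but 89 estimated counts against 98 to 163, and on TMM-scaled counts 5 of the 10 were at their lowest, Znrf3 among them, and 2 at their highest.

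**Figure D2:**
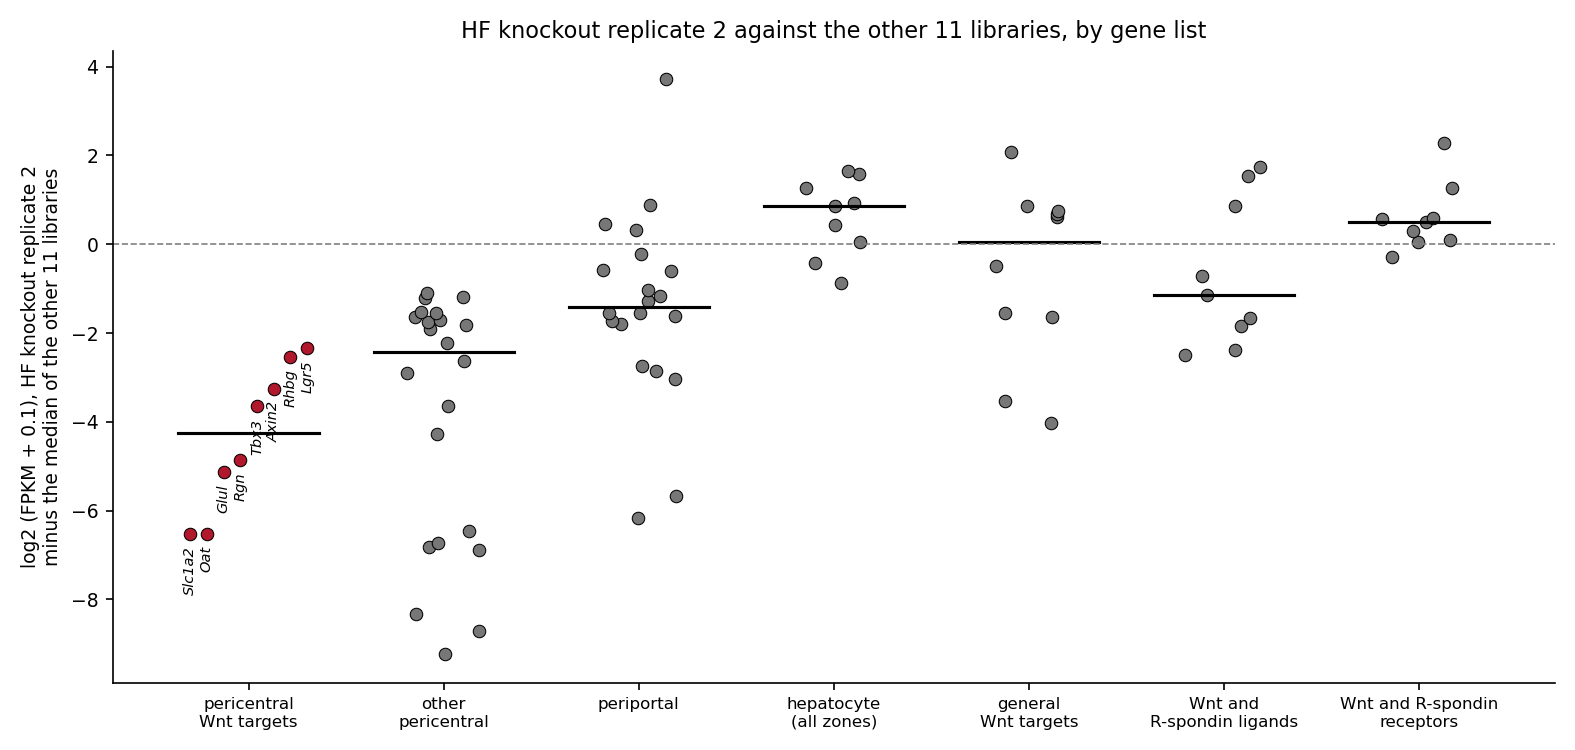
Difference in log2(FPKM + 0.1) between HF knockout replicate 2 and the median of the other 11 libraries for the tested genes of 7 lists, with each point a gene and each line a list's median. The 8 pericentral Wnt targets lie between Lgr5 and Slc1a2 with a median of -4.25, other pericentral genes have a median of -2.43, and hepatocyte markers of all zones a median of 0.87.

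The comparison of HF against LF in knockout livers asks what the diet did in mice without macrophage TSP1. No gene of the 8 passed a false discovery rate of 5% in edgeR, nor did any of the 12587 genes tested (0%), of which 1534 had an unadjusted p under 0.05. DESeq2 called 126 genes, and none of the 8. At an unadjusted p under 0.05 edgeR also had 0 of the 8. Of the 8, 7 had a negative log2 fold change, between -0.83 (Rgn) and -0.21 (Tbx3), and the median was -0.42 against 0.03 for all genes. Rgn had the smallest adjusted p in edgeR, 0.722, with a standard error of 0.84. Glul averaged 304 ± 254 FPKM in HF knockout and 466 ± 131 FPKM in LF knockout (SD, n = 3 each), with a log2 fold change of -0.51 (SE 0.85).

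Without HF knockout replicate 2, 6 of the 8 were positive, the median was 0.13 and Glul was at 0.05 (SE 0.31). Rgn, at -0.27 (SE 0.41), and Oat, at -0.01 (SE 0.58), were still negative. Axin2 had the smallest adjusted p in edgeR then, 0.776, at 0.31 (SE 0.24). No gene of the 8 had groups that did not overlap in either form, where 11.6% of all genes tested did not overlap over the 12 libraries. Of the other pericentral genes 18 of 22 were negative (median -0.57), and 13 of 22 (median -0.11) without that library. None of the 22 passed the test, and Gstm1, a glutathione transferase of a family of close copies, had the smallest p of the list at -0.96 (SE 0.37, adjusted p = 0.356 in edgeR).

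Markers of other cells differed too. The 8 Kupffer cell markers summed to 253, 97.4 and 411 FPKM in HF knockout replicates 1, 2 and 3 and to 88.6 to 133 FPKM in LF knockout. All 8 markers had positive log2 fold changes, with a median of 1.19, and of 1.57 without HF knockout replicate 2. In that second fit all 8 markers had an unadjusted p under 0.05 in edgeR, and none passed. The 7 neutrophil markers summed to 3.52 to 400.0 FPKM in HF knockout, highest in replicate 3, and to 2.64 to 3.31 FPKM in LF knockout. Their part in the values of the 8 genes was not tested.

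In floxed livers, HF against LF gives the diet effect with macrophage TSP1 intact. None of the 8 genes passed in edgeR, nor did any of all genes tested (0%), of which 1532 had an unadjusted p under 0.05, none of them among the 8. DESeq2 called 254 genes and again none of the 8. The median log2 fold change was -0.15 against 0.00 for all genes. FPKM of the groups did not overlap for Glul, Rhbg and Tbx3, 3 of the 8, against 26.9% of all genes tested. For each of these genes an exact two-sided permutation test gave p = 0.1, the least possible with 3 libraries a group. On TMM-scaled counts only Tbx3 of these 3 still had groups that did not overlap. Glul was then at 1075, 1036 and 1711 in HF floxed and 1276, 1203 and 884 in LF floxed. Rhbg was at 11.6, 8.04 and 20.2 in HF floxed and 7.88, 8.17 and 2.62 in LF floxed.

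Rhbg averaged 6.51 ± 2.27 FPKM in HF floxed and 2.62 ± 1.30 FPKM in LF floxed (SD, n = 3 each), a log2 fold change of 1.09 (SE 0.71, adjusted p = 0.554 in edgeR). Glul averaged 425 ± 73.2 FPKM in HF floxed and 316 ± 54.8 FPKM in LF floxed, a log2 fold change of 0.18 (SE 0.85). Neither passed, and Glul was at -0.10 with HF knockout replicate 1 and HF floxed replicate 3 left out together. Oat, at -0.11 (SE 1.05), and Slc1a2, at -0.29 (SE 1.05), the other 2 genes of ammonia and glutamate handling, had negative values. Tbx3 was at 5.23 ± 0.976 FPKM in HF floxed and 7.70 ± 0.962 FPKM in LF floxed, a log2 fold change of -0.80 (SE 0.72, adjusted p = 0.667 in edgeR).

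The spread estimate of this comparison is shared with HF knockout replicate 2, and without that library the standard errors were smaller. The value of Tbx3 was still -0.80, with SE 0.25, an unadjusted p of 0.00818 and an adjusted p of 0.164 in edgeR. In that fit 1 of the 8 had an unadjusted p under 0.05, against 17.3% of all 12764 genes tested. Notum, the secreted inhibitor, had a log2 fold change of -1.13 (SE 0.30, adjusted p = 0.118 in edgeR). Fitting the 2 floxed groups alone gave Tbx3 an adjusted p of 0.13 in edgeR, the smallest over every alternative run for the 8 genes, and the alternatives for this value of Tbx3 ran between 0.13 and 0.928.

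Among the other lists in floxed livers, 13 of 22 other pericentral genes were positive (median 0.17) and 15 of 20 periportal genes were negative (median -0.45), with none passing. Aldh1a1, a retinal dehydrogenase, was at 1.45 (SE 0.58, adjusted p = 0.366 in edgeR), and Gls2, the periportal glutaminase that opposes Glul, at -0.72 (SE 0.29, adjusted p = 0.373 in edgeR). Dbp, a clock output gene chosen after its values were seen, was at 2.44, 2.39 and 4.97 FPKM in HF floxed and 1.98, 90.82 and 57.85 FPKM in LF floxed. It was thus higher in 2 LF floxed libraries than in any HF floxed library. Dbp was uneven in knockout livers too, at 34.14, 3.97 and 2.64 FPKM in HF knockout and 84.17, 4.24 and 5.03 FPKM in LF knockout. HF knockout replicate 1, 1 of the 2 left without replicate 2, was thus above every HF floxed library. The part of Dbp in the values of the 8 genes was not tested in any comparison. The 11 stellate cell markers summed to 115 to 216 FPKM in HF floxed and 69.6 to 109 FPKM in LF floxed.

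On the HF diet, knockout against floxed asks what loss of macrophage TSP1 did to the 8 genes under that diet. With all 12 libraries in the fit, none of the 8 and none of all genes tested (0%) passed in edgeR, where 963 genes and 0 of the 8 had an unadjusted p under 0.05. By DESeq2, 69 genes and 0 of the 8 were called. The 8 genes split 4 positive to 4 negative, between -0.49 (Axin2) and 0.51 (Tbx3), with a median of -0.09. On the log2(FPKM + 0.1) scale in limma, where a very low library weighs more, all 8 were negative with a median of -1.26. No gene of the 8 had groups that did not overlap, against 9.33% of all genes tested.

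Without HF knockout replicate 2 all 8 were positive, between 0.06 for Axin2 and 1.06 for Tbx3, and the median was 0.42 against 0.01 for all genes. Tbx3 averaged 9.59 ± 1.91 FPKM in the 2 remaining HF knockout libraries and 5.23 ± 0.976 FPKM in the 3 HF floxed libraries (SD), with SE 0.27, an unadjusted p of 0.00242 and an adjusted p of 0.365 in edgeR. An unadjusted p under 0.05 was reached by 1 of the 8 and by 8.09% of all genes in that fit. The groups of Tbx3, alone among the 8, then did not overlap in FPKM (exact permutation p = 0.1, the least possible with 2 and 3 libraries). How many of all genes did so without that library was not counted, so no weight is put on this separation. Slc1a2 was at 0.77 (SE 0.44) and Oat at 0.69 (SE 0.58), and none of the 8 passed in that fit either. When each near-identical pair was also averaged, Tbx3 was at 0.94 and Rgn at -0.11, and the other 6 were between 0.07 and 0.52. Other hepatocyte lists were also mostly positive in the fit without HF knockout replicate 2, none of their genes passing. Positive were 15 of 22 other pericentral genes (median 0.31) and 8 of 9 hepatocyte markers of all zones (median 0.36). So were 13 of 15 glutamine, glutamate and ammonia genes (median 0.30) and 13 of 20 periportal genes (median 0.09). Markers of other cells differed in the same fit without that library, with none of their genes passing. All 8 Kupffer cell markers were positive (median 1.03, 6 with an unadjusted p under 0.05), as were all 5 tested neutrophil markers (median 5.15). Stellate cell markers were negative for 10 of 11 (median -0.68) and cholangiocyte markers for 4 of 6 (median -1.04, 4 with an unadjusted p under 0.05). Their part in the values of the 8 genes was not tested. HF floxed replicates 1 and 2, near-identical, gave the low values of Oat, Slc1a2, Tbx3 and Rgn in the floxed group.

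Among the Wnt and R-spondin ligands, 7 of 9 tested were negative on HF both with all 12 libraries (median -0.75) and without HF knockout replicate 2 (median -0.29), none of them passing. Rspo3 was at 0.51, 0.50 and 2.36 FPKM in HF knockout and 2.38, 2.61 and 2.26 FPKM in HF floxed. Its log2 fold change was -1.05 (SE 0.47, adjusted p = 0.642 in edgeR), and -0.69 (SE 0.43) without that library. Wnt9b, another central vein ligand, was at 0.01, 0.07 and 0.27 FPKM in HF knockout and 0.05, 0.15 and 0.31 FPKM in HF floxed, too near 0 to compare.

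On the LF diet, knockout against floxed asks the same question, and HF knockout replicate 2 enters only through the shared spread. None of the 8 passed in edgeR, and 2 of all genes tested did (0.0159%), and DESeq2 called 34 genes and 0 of the 8. Of the 8, 6 were positive, with a median of 0.37 against -0.02 for all genes. Rhbg was at 0.78 (SE 0.71), Oat at 0.59 (SE 1.05), Lgr5 at 0.46 (SE 0.67) and Glul at 0.37 (SE 0.85).

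Axin2, the feedback gene, was instead at -0.56, with 1.74 ± 0.266 FPKM in LF knockout and 2.26 ± 0.496 FPKM in LF floxed (SD, n = 3 each). Its SE was 0.65 with all 12 libraries, and 0.21 without HF knockout replicate 2 at an unadjusted p of 0.0233 and an adjusted p of 0.605 in edgeR. In the fit without that library 1 of the 8 and 7.81% of all genes had an unadjusted p under 0.05. No gene of the 8 had groups that did not overlap in FPKM, against 18.2% of all genes tested. On TMM-scaled counts those of Axin2 narrowly did not overlap. They were at 7.38, 8.25 and 9.23 in LF knockout and 12.7, 14.6 and 9.31 in LF floxed. The LF knockout group contains the near-identical replicates 2 and 3, which gave its higher values for all 8 genes. Other pericentral genes were positive for 19 of 22 (median 0.48), none passing, with Aldh1a1 at 1.38 (SE 0.58, adjusted p = 0.929 in edgeR).

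The interaction asks whether the diet effect differed between the genotypes. Again no gene of the 8 passed in edgeR, and 2 of all genes tested did (0.0159%), and DESeq2 called 107 genes and 0 of the 8. With 12 libraries 6 of the 8 were negative (median -0.42), Rhbg lowest at -1.04 (SE 1.00, adjusted p = 0.761). Without HF knockout replicate 2 the median was 0.13, and Tbx3 was at 1.14 (SE 0.37, unadjusted p of 0.00974, adjusted p = 0.324 in edgeR). An unadjusted p under 0.05 was then reached by 1 of the 8 and by 12.1% of all genes. The comparisons that share a group also share its libraries, so the values of Tbx3 on HF, in floxed livers and in the interaction all draw on the same 3 HF floxed libraries.

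**Figure D3:**
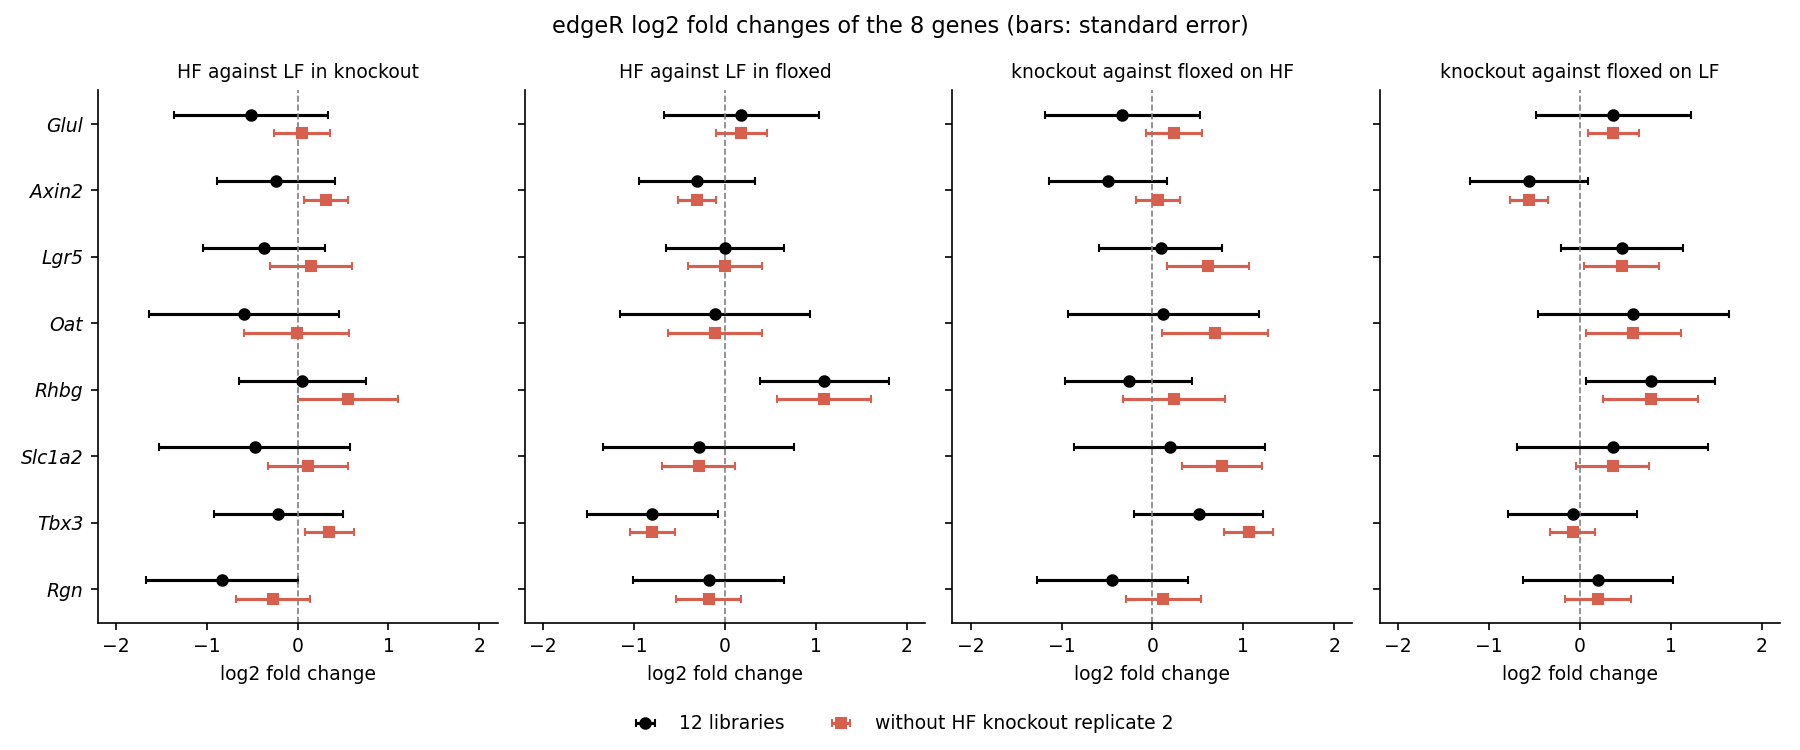
edgeR log2 fold changes of the 8 genes in 4 comparisons, with black circles for all 12 libraries, red squares without HF knockout replicate 2 and bars of 1 standard error. For knockout against floxed on HF, all 8 squares are above 0 with a median of 0.42 and Tbx3 at 1.06, and the circles have a median of -0.09.

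Across the 4 groups, the order of the group means of FPKM was not separated for most of the 8 genes. Of 24 neighbouring pairs in those orders, 1 differed by more than the larger of the 2 SDs, Glul in HF floxed over LF floxed, and without HF knockout replicate 2 there were 3. These steps rest on FPKM, and on TMM-scaled counts the Glul values of HF floxed and LF floxed overlapped. How many of all genes had such steps was not counted, so no weight is put on them. With HF knockout replicate 2 left out, HF knockout was the highest group for Lgr5, Rhbg, Slc1a2 and Tbx3, and LF knockout for Glul, Oat and Rgn. LF floxed was the highest for Axin2 and the lowest for Glul, Lgr5, Oat and Rhbg. The ratio of the highest to the lowest group mean was then between 1.30 for Axin2 and 2.65 for Rhbg.

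How the 8 genes varied together was read over 9 samples, with HF knockout replicate 2 left out and each near-identical pair averaged. Over the 28 pairs, Pearson's r of log2(FPKM + 0.1) was between -0.40 and 0.95, with a median of 0.45, and 21 were positive. The closest pair was Glul and Rhbg, glutamine synthetase and the ammonium transporter (r = 0.95, exact permutation p = 6.06e-05, adjusted p = 0.0017 over 28 pairs; rho = 0.90, exact permutation p = 0.00203, adjusted p = 0.0526). Its r was 0.96 without the 2 samples farthest from the median of Glul and 0.97 with values centred on the group means.

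Among the other pairs, Lgr5 went with Glul (r = 0.84, rho = 0.87, adjusted exact permutation p = 0.0783 for r and 0.0526 for rho). Oat went with Slc1a2 (r = 0.82), Oat with Rgn (r = 0.80) and Slc1a2 with Rgn (r = 0.78), with adjusted exact permutation p of 0.0783, 0.0827 and 0.0827, none of which passed. The r of Oat and Slc1a2 was 0.59 without the 2 samples farthest from the median of Oat. Other pairs among these 6 genes came near them, with r = 0.70 for Glul and Oat, and rho = 0.78 for Rhbg and Slc1a2 against 0.77 for Slc1a2 and Rgn. Axin2 stood outside, with r between -0.40 (Rgn) and 0.13 (Rhbg). Before centring, Tbx3 was also loosely tied, with r between -0.24 (Axin2) and 0.59 (Slc1a2). The last of these was -0.33 without the 2 samples farthest from the median of Slc1a2. With values centred on the group means, the r of Tbx3 was between -0.53 (Axin2) and 0.73 (Rgn), with 0.68 for Slc1a2. In all, 8 of the 28 pairs had an unadjusted exact permutation p under 0.05 for r.

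**Figure D4:**
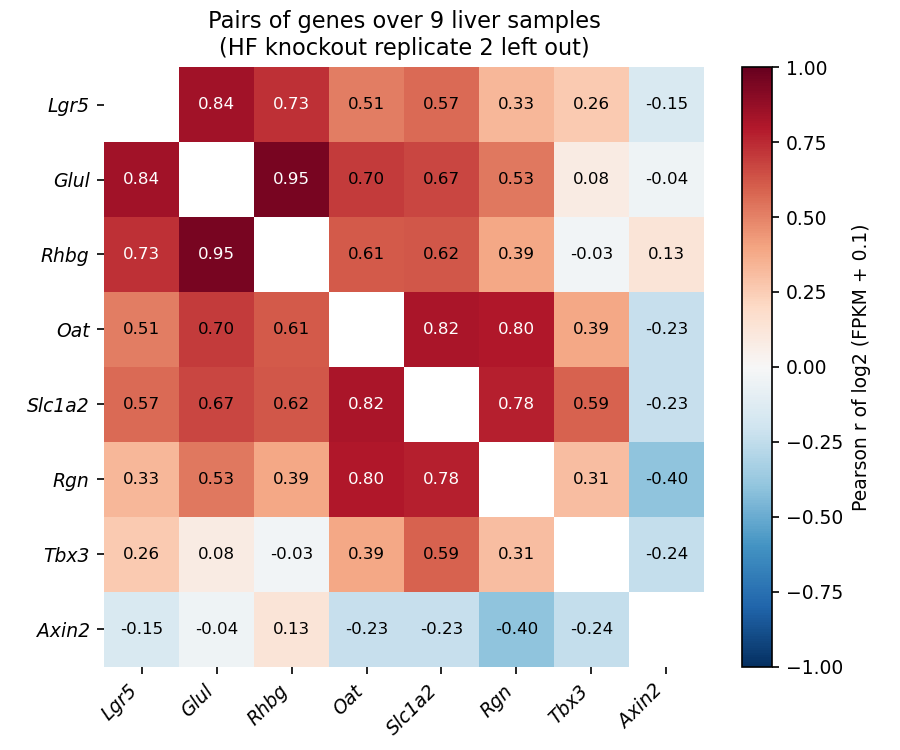
Pearson's r of log2(FPKM + 0.1) for the 28 pairs of the 8 genes over 9 liver samples, with HF knockout replicate 2 left out and near-identical libraries averaged. The pairs among Lgr5, Glul and Rhbg are at 0.73 to 0.95, those among Oat, Slc1a2 and Rgn at 0.78 to 0.82, those between the 2 trios at 0.33 to 0.70, and Axin2 lies between -0.40 and 0.13 with all others.

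Over all 12 libraries, the genes most like Glul, Axin2, Lgr5, Oat, Rhbg, Tbx3 and Rgn, among 12265 compared, had r between 0.954 and 0.993. HF knockout replicate 2 enters these values as the far point. They were Ces3a for Glul, Dpys for Axin2, Akr1d1 for Lgr5, Cyp2e1 for Oat, Bhmt for Rhbg, Cyp4f15 for Tbx3 and Akr1c6 for Rgn.

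Over the 11 libraries without it, Cyp2e1 was still the gene most like Oat (r = 0.947), Bhmt the one most like Rhbg (r = 0.959) and Akr1c6 the one most like Rgn (r = 0.890). In these rankings each near-identical library counts on its own, unlike in the 9 samples above. Each r is also picked as among the highest of 12265, so its size is not a test. Bhmt encodes betaine-homocysteine methyltransferase, and Lect2, a secreted hepatocyte protein, was next for Rhbg (r = 0.957). For Slc1a2 it was Tmem86b (r = 0.972), with Cyp2c50, one of a family of close copies, next (r = 0.961). For Glul, Lgr5, Tbx3 and Axin2 the most like genes changed to Ugt3a2 (r = 0.945), Prpf8 (r = 0.956), Ogfrl1 (r = 0.942) and Ajuba (r = 0.839). The 8 genes were never among the 3 genes most like one another, over 12 or over 11 libraries.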

How the data were processed

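Per the labels' protocols, total RNA of flash-frozen livers was extracted with the RNeasy kit and sequenced by BGI with its standard library protocol. The submitters' processing notes give mm9 as the genome build, and which aligner and counting program were used is not given in the sources used here. The deposited files list, per gene and library, estimated counts (expected counts) and FPKM, as the authors computed them per the file headers. A gene absent from a file was taken as 0. Unnamed loci, which took 6.65 to 17.33% of a library's counts, were left out.

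Estimated counts were rounded to whole numbers, and edgeR 4.0.16 (R 4.3.3) was used for the tests (TMM, filterByExpr, trended dispersion, quasi-likelihood F test, 1 mean per group, 12 libraries, 12587 genes). P-values were adjusted by Benjamini-Hochberg over all genes tested, with calls at 5%, and the biological coefficient of variation was 34.8% (28.2% without HF knockout replicate 2). Single genes were also tested by exact two-sided permutation of log2(FPKM + 0.1). Alternatives used DESeq2 1.42.0, limma 3.58.1, other filters and left-out libraries. Near-identical libraries differed beyond sampling noise and were kept apart, and an alternative averaged them.

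The 8 genes and the gene lists were chosen with earlier results of these data known. Named genes were the 8, 10 further genes of the pathway and the zones, in each comparison the 3 of each list with the smallest p, and the 3 genes most like each of the 8 by r. The gene most like Slc1a2 over 12 libraries is not reported here. Promoters are from RefSeq (GRCm38.p6).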

Additional observations from a re-analysis of the deposited data

How the results depend on the processing

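None of the 8 genes passed under any of the 24 alternatives in any of the 5 comparisons. Of 952 values, 853 kept the sign they had with all 12 libraries and 99 changed it, over 25 of 40 gene and comparison results. The causes were not tested, apart from what each alternative leaves out. Depth limits Axin2, Lgr5 and Rhbg, which have few counts, more than the other 5.

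Genes called over the whole table depended on the tool. DESeq2 called 126 and 254 for HF against LF in knockout and floxed livers, 69 and 34 for knockout against floxed on HF and LF, and 107 for the interaction, where edgeR called 0, 0, 0, 2 and 2. For HF against LF in floxed livers, edgeR called 1 with no filter, 3 with unnamed loci kept and 82 with only the groups compared, and limma on log2(FPKM + 0.1) called 1. For knockout against floxed on LF, 11 were called with only the groups compared, and limma called 0 with + 1 and 1 with + 0.1. Averaging near-identical libraries gave 0 there and for the interaction, with or without HF knockout replicate 2, and keeping unnamed loci gave 1 for the interaction. Leaving out HF knockout replicate 1 and HF floxed replicate 3 together, whose files are named in another form, gave 2, 158, 3, 7 and 5 in the order of the comparisons. Leaving out 1 library at a time gave 0 to 10, 0 to 14, 0 to 14, 0 to 13 and 1 to 17.

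The labels do not say that the replicate numbers pair the libraries, and the libraries were treated as unpaired. Deviations from the group means correlated at -0.32 to 0.43 over 18 same-numbered pairs, 3 of them over 0.1. With so few libraries a group this does not settle whether the numbers mark a pairing. A fit with the replicate block called 0, 0, 0, 0 and 1, and turned Rhbg to -0.10 for HF against LF in knockout, Lgr5 to -0.04 for knockout against floxed on HF and Axin2 to -0.05 in the interaction.

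For HF against LF in knockout, averaging near-identical libraries and leaving out HF knockout replicate 2, an alternative chosen after seeing the data, gave Glul 0.16, Axin2 0.35, Lgr5 0.32, Oat 0.09, Slc1a2 0.19 and Tbx3 0.39. Rhbg was -0.19 and -0.31 by limma (+ 1 and + 0.1), and -0.60 without the 2 libraries named in another form. With 1 library left out, Glul ran between -1.13 and 0.05, Axin2 between -0.80 and 0.31, Lgr5 between -0.84 and 0.15, Rhbg between -0.60 and 0.55, Slc1a2 between -1.48 and 0.11 and Tbx3 between -1.04 and 0.35.

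For HF against LF in floxed, averaging gave Lgr5 0.19, Oat 0.20 and Rgn 0.05, the same without HF knockout replicate 2. Lgr5, near 0 throughout, was 0.01 by DESeq2, with its size factors and with unnamed loci kept, 0.00 with no filter and with only the groups compared, and 0.11 and 0.21 by limma. Glul was -0.10 without the 2 libraries named in another form. With 1 library left out, Glul ran between -0.09 and 0.31, Lgr5 between -0.48 and 0.38, Oat between -1.07 and 0.44 and Rgn between -0.79 and 0.05.

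For knockout against floxed on HF, averaging gave Lgr5 -0.11, Oat -0.20 and Slc1a2 -0.07, and, with HF knockout replicate 2 also left out, Glul 0.12, Axin2 0.12 and Rhbg 0.07. By limma with + 1 and + 0.1, which weighs HF knockout replicate 2 on the log scale, Lgr5 was -0.08 and -0.38, Oat -1.23 and -1.35, Slc1a2 -0.74 and -1.48 and Tbx3 -0.18 and -0.49. Slc1a2 was -0.10 and Tbx3 -0.01 without the 2 libraries named in another form. With 1 library left out, Glul ran between -0.92 and 0.24, Axin2 between -1.02 and 0.06, Lgr5 between -0.39 and 0.61, Oat between -0.48 and 1.07, Rhbg between -0.88 and 0.24, Slc1a2 between -0.80 and 0.88, Tbx3 between -0.30 and 1.06 and Rgn between -1.23 and 0.17.

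For knockout against floxed on LF, Tbx3 alone changed sign, to 0.08 by limma with either pseudocount, and ran between -0.18 and 0.02 with 1 library left out. In the interaction, limma gave Axin2 -0.30 and -0.82 and Tbx3 -0.25 and -0.57, and Axin2 was -0.58 without the 2 libraries named in another form. Averaging with HF knockout replicate 2 left out gave Lgr5 0.12 and Slc1a2 0.23. With 1 library left out, Axin2 ran between -0.48 and 0.62, Lgr5 between -0.84 and 0.15, Oat between -1.08 and 0.48, Slc1a2 between -1.18 and 0.52 and Tbx3 between -0.24 and 1.14.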
